A study of Rattus norvegicus with 20 samples.

Results

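The comparison described here set 5 obese rats given Cmpd 1, an ATP-competitive inhibitor of protein kinase C (PKC) α and β, in their chow against 5 obese rats given a matched amount of food without it, and so asked how the compound altered fat tissue at a like food intake. These 10 libraries were taken by their sample labels (Cmpd1, and calorie restriction, called Food matched here) from the 20 in the series, which also holds 5 Lean and 5 Obese rats. All were male ZSF1 rats, a hybrid line in which obese animals lack a working leptin receptor, and RNA was sequenced from inguinal white adipose tissue (iWAT), a subcutaneous fat depot. All groups were fed the same Purina chow. The study ran for 10 weeks, from 21 to 22 weeks of age to about 32 weeks. Cmpd 1 was mixed into that chow at about 50 mg/kg per day, and Food matched rats received each week the amount the Cmpd 1 group had eaten in the week before. Because every obese rat lacks leptin receptor signalling, the model holds no leptin response in the Cmpd 1, Food matched and Obese groups. Lean rats, as the paper describes the line, are ZSF1 animals without that homozygous deficiency. Lepr, the leptin receptor gene itself, was at 1.84, 2.32, 1.69, 1.41 and 1.83 CPM (counts scaled to a common library size) in Food matched rats 1 to 5 and at 1.38, 1.34, 1.62, 1.35 and 1.48 CPM in Cmpd 1 rats 1 to 5. The groups overlapped and their difference did not pass the test (log2 fold change −0.34, adjusted p = 0.36 from edgeR), while Lean rats averaged 7.66 ± 3.28 CPM (SD, n = 5).

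Subcutaneous fat holds adipocytes together with macrophages, fibroblast-like progenitors, endothelial cells and nerve fibres, and in obesity lipid-filled macrophages gather around dying adipocytes while fibrous matrix builds up. Conventional PKC isoforms such as PKCα and PKCβ are switched on by diacylglycerol and calcium downstream of many surface receptors, and PKCβ is abundant in leukocytes. In bulk tissue, fewer cells of a type and less RNA per cell of that type cannot be told apart, which holds for each result below.

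The adipocyte markers were present in all 10 libraries, with the 21 measured genes of adipocyte identity summing to 21730 to 27550 CPM in Food matched and 23770 to 25590 CPM in Cmpd 1 rats. Between 31716457 and 65759306 reads were counted per Cmpd 1 library and between 54649679 and 74784655 per Food matched library, with Cmpd 1 rat 4 the shallowest. Over log2 CPM of all genes tested, the first principal component of the 10 libraries (29% of the variance) placed Food matched rats between −37.5 and −12.3 and Cmpd 1 rats between 11.0 and 44.7. Food matched rat 5 and Cmpd 1 rat 1 were the nearest to each other, and Cmpd 1 rat 4 was the farthest out. Skeletal muscle markers summed to 108 CPM in Food matched rat 5 and to between 9.77 and 16.6 CPM in the other 9 libraries. When each of the 10 libraries was left out in turn, the count of differentially expressed genes given next ranged from 803 (without Cmpd 1 rat 4) to 1289 (without Food matched rat 5).

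More genes were lower than higher with Cmpd 1 at the thresholds used. Of 17653 genes tested, 1092 (6.19%) were differentially expressed genes (DEGs), which needed more than a 1.5-fold difference and a Benjamini-Hochberg adjusted p under 0.05 (edgeR, quasi-likelihood). With Cmpd 1, 272 of them (1.54%) were higher and 820 (4.65%) lower. With no threshold on the fold, 2015 genes were higher (11.4%) and 2016 were lower (11.4%) at that adjusted p, so the excess of decreases was in the larger folds. Over 2-fold, 75 DEGs were higher and 299 lower, and over 3-fold, 23 were higher and 102 lower. The 5 Cmpd 1 rats lay wholly above the 5 Food matched rats for 1245 genes (7.05%) and wholly below them for 1387 (7.86%), and did so for 150 of the DEGs that were higher and 584 of those that were lower. The median log2 fold change of all genes tested was 0.0058. The restricted food itself gave 0 DEGs against Obese rats (0%) by edgeR, where 1887 genes had an unadjusted p under 0.05, and 10 DEGs by limma-voom and 69 by DESeq2. Without Food matched rat 5 edgeR called 93 DEGs there.

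**Figure D1:**
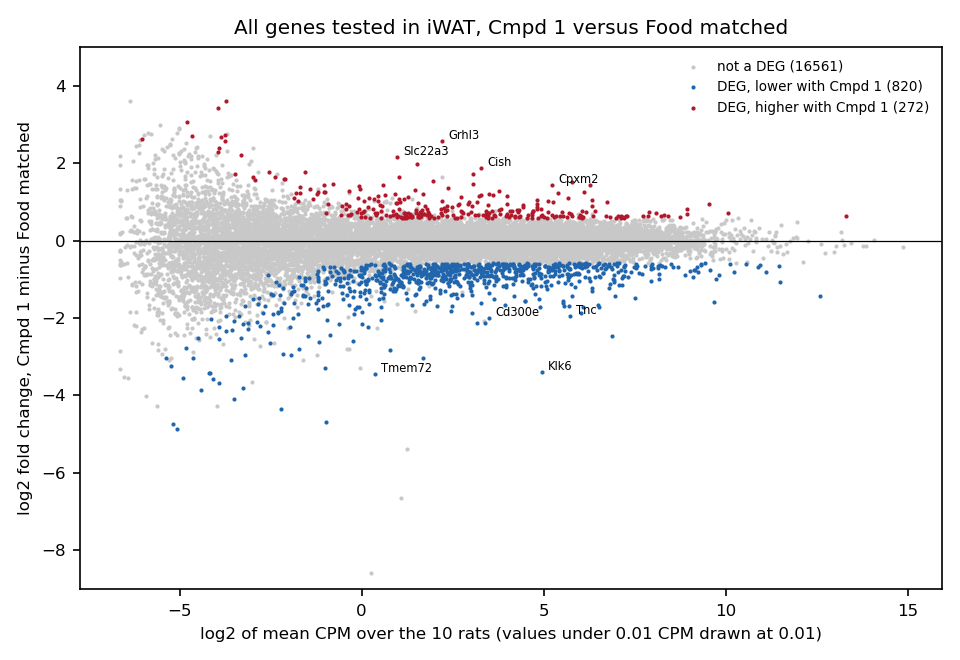
Log2 fold change of Cmpd 1 minus Food matched against the log2 of each gene's mean CPM over the 10 rats, 1 point a gene, coloured where the gene was a DEG. The 820 blue points below 0 reach farther from the axis than most of the 272 red points above it, and 8 genes with large changes are named.

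Among well-measured genes (a mean of at least 1 CPM over the 10 rats and no overlap between groups), the largest decreases included secreted proteins and a myeloid receptor. Tmem72, a membrane protein gene, was at 2.78, 2.21, 3.47, 1.68 and 1.69 CPM in Food matched rats and at 0.454, 0.201, 0.0416, 0.153 and 0.193 CPM in Cmpd 1 rats. Its log2 fold change was −3.44 (SE 0.40, adjusted p = 3.5e-05 from edgeR), the largest decrease by that rule. Cd300e, an activating receptor of monocytes, fell 4.00-fold, from 18.1 ± 5.59 to 4.52 ± 0.753 CPM (SD, n = 5 each, adjusted p = 6.4e-06 from edgeR). Lipg, the endothelial lipase gene, fell by 2.24 on the log2 scale and Prss35, a serine protease gene, by 2.15. Klk6, another serine protease gene, was among these as well, with all 5 Cmpd 1 rats between 3.34 and 8.55 CPM and all 5 Food matched rats between 29.6 and 99.3 CPM. It belongs to a multigene family, so reads shared between copies are uncertain. Of 15 epithelial and gland genes, Klk6 and Krt79, a keratin gene (−2.13), fell and Grhl3, an epithelial transcription factor gene (2.56), rose. The other 12 were no DEGs, and of all 15, 6 had a positive and 9 a negative log2 fold change. The summed level of the 15 genes was 89.05 to 182.6 CPM in Food matched and 59.95 to 73.03 CPM in Cmpd 1 rats. Klk6, itself picked for no overlap, averaged 56.1 CPM of a mean sum of 139.3 in Food matched rats. In Cmpd 1 rats it averaged 5.30 CPM of 65.72. The part of such cells in the changes of these genes was not tested.

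The largest increases, taken by the same rule, which required no overlap between groups, were mostly of genes at low levels in Food matched rats. Slc22a3, an organic cation transporter gene, was at 0.515, 0.789, 0.542, 0.766 and 0.796 CPM in Food matched rats and at 1.27, 2.46, 3.19, 7.35 and 1.86 CPM in Cmpd 1 rats (log2 fold change 2.17, SE 0.38, adjusted p = 0.00047 from edgeR). Cish, a feedback inhibitor induced by STAT5, was at 4.51, 3.98, 3.49, 3.92 and 4.61 CPM in Food matched and at 8.53, 8.14, 12.1, 33.3 and 13.6 CPM in Cmpd 1 rats. Cmpd 1 rat 4 was the highest for both genes. Without it the log2 fold changes were 1.66 for Slc22a3 and 1.37 for Cish and both remained DEGs. Cpxm2, a carboxypeptidase-like secreted protein gene, rose from 20.3 ± 3.36 to 54.5 ± 13.9 CPM (SD, n = 5 each, log2 fold change 1.42, adjusted p = 0.00012 from edgeR). Dmrt2, a transcription factor gene, rose from 40.5 ± 15.2 to 96.2 ± 13.6 CPM (SD, n = 5 each). Egln3 (log2 fold change 1.30), an oxygen-sensing prolyl hydroxylase, Gpc2 (1.21), a glypican, and Prdm8 (1.20), a zinc-finger regulator, also rose.

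The targets of the inhibitor were themselves measured. Prkcb, which encodes PKCβ, was at 18.9, 19.9, 18.0, 19.2 and 18.3 CPM in Food matched rats and at 12.6, 13.2, 12.6, 11.9 and 13.2 CPM in Cmpd 1 rats. The groups did not overlap and spread little, with a log2 fold change of −0.57 (SE 0.09, adjusted p = 0.00021 from edgeR), which is 1.48-fold and under the threshold for a DEG; with no filter on low counts Prkcb was a DEG, at −0.59. Prkca, which encodes PKCα, was at 13.5, 13.8, 11.7, 13.1 and 14.3 CPM in Food matched and at 9.77, 12.7, 14.4, 14.1 and 13.99 CPM in Cmpd 1 rats, groups that overlapped (log2 fold change −0.03, SE 0.11, adjusted p = 0.88 from edgeR). The sign of this Prkca value turned with scaling by library size alone and without Cmpd 1 rat 1. Of 9 PKC isoform genes with the filter on, edgeR, limma-voom and DESeq2 each called 0 as DEGs, with 4 at an unadjusted p under 0.05. Besides Prkcb, Prkcd was lower at an adjusted p under 0.05 (−0.50), and Prkce (0.33) and Prkci (0.35) were higher. Among 9 diacylglycerol kinase genes, whose products remove the lipid that activates PKC, Dgki was the 1 DEG. It was at 6.27 ± 1.62 CPM in Food matched rats against 2.60 ± 0.519 CPM in Cmpd 1 rats (SD, n = 5 each, log2 fold change −1.27, adjusted p = 0.0011 from edgeR). Of 23 ERK and immediate early response genes, which lie downstream of PKC among other pathways, 1 was a DEG, Fos (−0.64), which was no DEG without Cmpd 1 rat 1, Cmpd 1 rat 3 or Food matched rat 3.

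The lists that follow are described by how many members were DEGs and, for some lists, by their median, beside the shares and the median of all genes given above. Genes that mark lipid-associated macrophages, the cells that clear lipid from dying adipocytes, held 12 DEGs of 19 measured, all lower with Cmpd 1, and had a median log2 fold change of −0.76. Between 11 and 12 were lower DEGs with each other scaling, filter, tool, sample set and left-out rat. Gpnmb, a glycoprotein of these cells, was at 3861 ± 732 CPM in Food matched, 1843 ± 429 CPM in Cmpd 1 and 2902 ± 412 CPM in Obese rats (SD, n = 5 each). Trem2, their lipid-sensing receptor (−0.76), Lipa, the lysosomal acid lipase (−0.76), Spp1, osteopontin (−1.57), Atp6v0d2, a subunit of the proton pump (−1.41), and Mmp12, the macrophage elastase (−1.87), were DEGs as well. Apoe (−0.07), Cd9 (−0.02) and Cd36 (−0.19) did not pass the test. The summed level of the list was 9051 to 13620 CPM in Food matched rats and 5909 to 7878 CPM in Cmpd 1 rats, groups that did not overlap, against 7745 to 10100 CPM in Obese and 3049 to 4347 CPM in Lean rats.

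Broader leukocyte markers moved the same way. Of 16 pan-leukocyte and monocyte genes, 9 were DEGs, all lower (median −0.60), and 5 of these 9 remained DEGs without Cmpd 1 rat 4. Cd68, a macrophage marker of the lysosome membrane, was at 400.1, 439, 374, 357 and 285 CPM in Food matched and at 254, 227, 185, 151 and 209 CPM in Cmpd 1 rats, without overlap (log2 fold change −0.85, SE 0.15, adjusted p = 0.00063 from edgeR). Itgam, the CD11b integrin (−0.81), Itgb2, its partner chain (−0.88), and Lyz2, a lysozyme (−0.80), fell too. Their summed level was 4248 to 7384 CPM in Food matched and 2794 to 4108 CPM in Cmpd 1 rats. Among 14 resident macrophage genes, 2 fell, Mrc1, the mannose receptor (−0.93), and Vsig4, a complement receptor at under 1.2 CPM (−2.47), while Lyve1 (−0.13), Stab1 (0.16) and Timd4 (0.49) did not pass. Of 20 T cell and cytotoxic lymphocyte genes, Cd4 (−0.60) and Ctla4 (−0.97) fell and Prf1 (0.60) rose, and each call ended without some single library: Cd4 without Food matched rat 2 (−0.53), Ctla4 without Cmpd 1 rat 1 and Prf1 without Cmpd 1 rat 4 among them. Neither Cd3e (0.16), Cd3g (−0.07) nor Cd8a (−0.10) passed. The median of this list was 0.14, with 12 members at a positive and 8 at a negative log2 fold change. Cd4 alone averaged 433 CPM in Food matched rats, where the mean sum of the whole list was 476 CPM. Which cells the Cd4 reads came from was not tested. Ctla4 averaged 0.96 CPM in Food matched rats, and its groups overlapped. Among 14 genes of B cells and lymph nodes 0 were DEGs by edgeR, limma-voom and DESeq2, with 1 at an unadjusted p under 0.05. Of 12 mast cell genes, 9 had a positive and 3 a negative log2 fold change (median 0.50). Hdc, the enzyme that makes histamine (0.72), was a higher DEG, while Il1rl1 (−1.61) and Mrgprx2 (−1.07) were lower DEGs. Without Food matched rat 2 there were 6 higher DEGs, and without Cmpd 1 rat 1 there were 5.

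Genes of the lysosome, the compartment where macrophages break down what they engulf, held 6 DEGs of 26 measured, all lower. Of these DEGs, Ctsk, Lipa and Atp6v0d2 belong also to the list of lipid-associated macrophages, and Laptm5 to the pan-leukocyte list. Ctsd, cathepsin D, was at 3443 ± 574 CPM in Food matched rats against 2192 ± 293 CPM in Cmpd 1 rats (SD, n = 5 each, log2 fold change −0.65, adjusted p = 0.00047 from edgeR), and Ctsz (−0.71) and Ctsk (−0.62) fell with it. The call of Ctsk ended without Cmpd 1 rat 5 and without Food matched rat 2 (lowest size −0.55). The list's median was −0.16, Lamp2 (−0.00), Hexa (−0.01) and Tfeb (−0.04) stood near 0, and Lamp1 was higher at an adjusted p under 0.05 (0.25). Of 15 iron handling genes, 3 fell and 0 rose. Hmox1, haem oxygenase 1, was at 149.8, 143, 99.8, 133 and 106 CPM in Food matched and at 75.8, 76.8, 64.7, 64.4 and 73.7 CPM in Cmpd 1 rats, without overlap (−0.83, adjusted p = 7.1e-05 from edgeR). Slc11a1, a phagosomal metal transporter (−0.83), and Ftl1, the ferritin light chain (−0.68), fell, while Fth1, the heavy chain, did not pass (−0.08).

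Cd44, a receptor for hyaluronan and osteopontin, fell 1.93-fold with Cmpd 1. It was at 231, 253, 214, 193 and 151 CPM in Food matched and at 119, 113, 119, 80.7 and 108 CPM in Cmpd 1 rats, so the groups did not overlap (log2 fold change −0.95, SE 0.14, adjusted p = 0.00021 from edgeR). Obese rats averaged 175 ± 25.8 and Lean rats 48.0 ± 9.18 CPM (SD, n = 5 each). Of 18 genes of CD44 and hyaluronan, 7 were DEGs, all lower (median −0.63). Layn, the hyaluronan receptor layilin, was at 40.0, 41.1, 31.0, 36.5 and 29.9 CPM and then at 23.1, 24.2, 20.2, 16.7 and 20.3 CPM, and Hmmr, a hyaluronan receptor that is also made in dividing cells, fell by 0.79 on the log2 scale. The genes that make or cut hyaluronan were no DEGs by edgeR, with Has2 at 0.63, Has3 at 0.79, Hyal1 at 0.14 and Hyal2 at 0.09, while DESeq2 called the synthase genes Has2 (0.62) and Has3 (0.78) higher. Mmp12, Spp1 and Lgals3 belong both to this list and to that of lipid-associated macrophages.

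**Figure D2:**
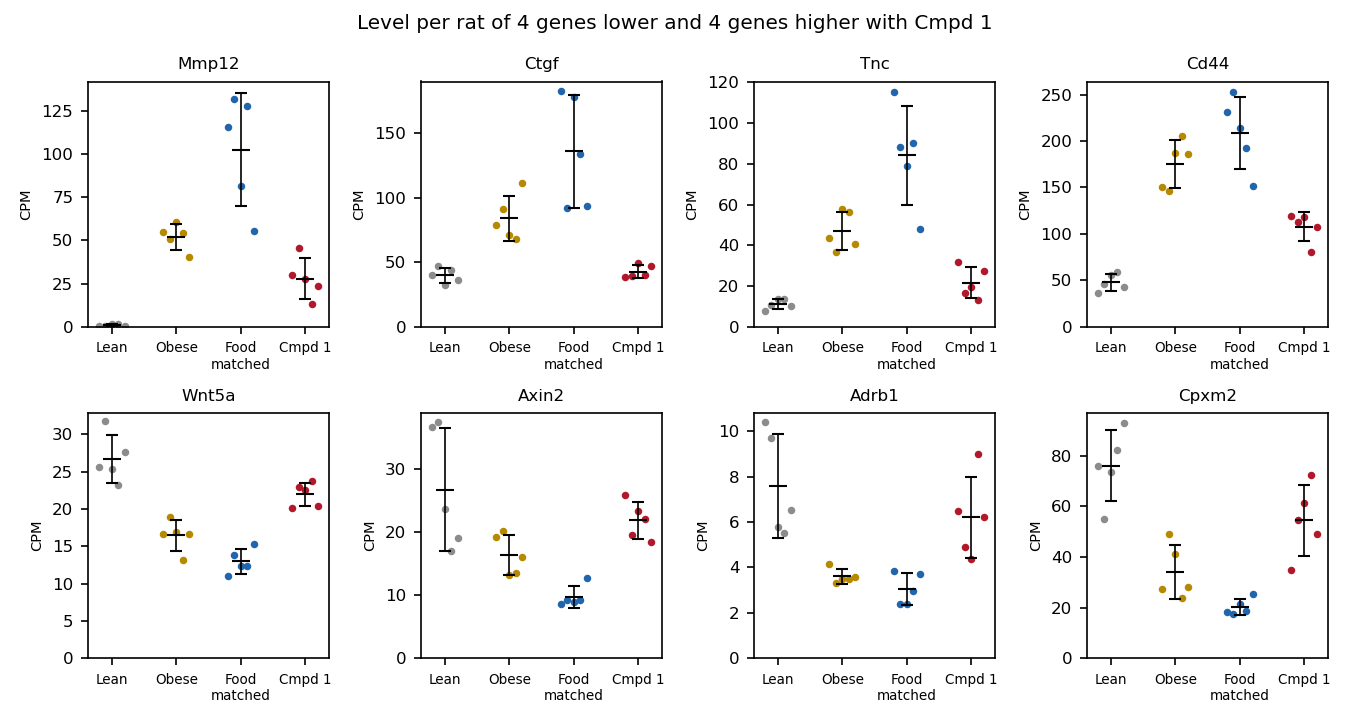
CPM of 8 genes in each rat of the 4 groups (5 points a group; black bars give the mean ± SD), 4 lower (top) and 4 higher (bottom) with Cmpd 1 than in Food matched rats. In each panel all 5 Cmpd 1 rats lie on 1 side of the 5 Food matched rats, for Cd44 between 80.7 and 119 CPM against 151 to 253 CPM. Mmp12, Tnc and Cpxm2 were picked by a rule that required this.

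The growth factors and matrix that mark fibrosis divided. Ctgf, connective tissue growth factor, a matrix-inducing protein and a target of TGF-β, was at 183, 91.7, 178, 134 and 93.9 CPM in Food matched and at 38.6, 39.2, 49.2, 39.8 and 47.4 CPM in Cmpd 1 rats. Cmpd 1 rats were close together and below every Food matched rat (log2 fold change −1.67, SE 0.18, adjusted p = 2.8e-05 from edgeR), and Lean rats averaged 39.9 ± 5.73 CPM (SD, n = 5). Of 33 genes of TGF-β, BMP and activin signalling, 5 fell and 2 rose, while limma-voom called 3 lower and 2 higher, and the list's median was above 0, at 0.18. Inhba, an activin subunit (−1.28), and Gdf15, a stress-induced cytokine (−1.06), fell along with Ctgf. Inhba was no DEG by limma-voom or without Cmpd 1 rats 2, 4 or 5 or Food matched rats 1 or 3 in turn. Fst, which encodes follistatin, the antagonist that binds activins, rose from 12.5, 15.7, 13.2, 15.4 and 18.2 CPM to 23.2, 32.7, 27.1, 32.2 and 26.5 CPM (log2 fold change 0.92, SE 0.16, adjusted p = 0.00047 from edgeR). Tgfb1 (−0.42), Tgfb3 (−0.53) and the receptor Tgfbr1 (−0.49) were lower at an adjusted p under 0.05, under the fold threshold.

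Among 24 genes of noncollagen matrix and collagen processing, 6 fell and 1 rose (median −0.27). Tnc, tenascin C, a matrix protein of tissue repair, was at 115, 88.1, 78.9, 90.3 and 48.2 CPM in Food matched and at 31.7, 16.4, 19.3, 13.4 and 27.6 CPM in Cmpd 1 rats (log2 fold change −1.95, SE 0.23, adjusted p = 3.5e-05 from edgeR). Lum, lumican (−1.08), Vcan, versican (−0.72, and −0.57 without Food matched rat 1, where it was no DEG), Fn1, fibronectin (−0.63, and −0.51 without Food matched rat 2, where it was no DEG), and Ltbp2, a fibrillin-binding protein (−1.69), fell, and Ltbp1, which holds latent TGF-β in the matrix, rose (0.71). Of 18 collagen chain genes, Col8a1 (−0.86) and Col6a3 (−0.61) fell, the latter no DEG without Cmpd 1 rats 2 or 3 or Food matched rats 1, 3 or 4 in turn, and Col1a1 (−0.28) and Col3a1 (−0.33) did not pass the test, with a list median of −0.05. The summed level of the chains was 17980 to 27050 CPM in Food matched and 17980 to 22450 CPM in Cmpd 1 rats, which overlapped. Of 19 matrix metalloproteinases and inhibitors, 4 fell, Mmp12, Mmp7, Mmp19 and Timp1, and 4 of this list were lower DEGs with each other scaling, filter, tool, sample set and left-out rat. Timp1, a broad inhibitor of these proteases, was at 161 ± 40.4 CPM in Food matched rats against 80.3 ± 13.3 CPM in Cmpd 1 rats (SD, n = 5 each, −1.01, adjusted p = 0.00041 from edgeR).

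Most proliferation genes were lower with Cmpd 1. Of 26 genes of the cell cycle and DNA replication, 15 were lower DEGs and 25 were lower at an adjusted p under 0.05, with a median of −0.76, and the 1 other, Tyms, was at −0.19. Top2a, topoisomerase 2α, was at 36.7, 40.4, 46.9, 37.3 and 30.5 CPM in Food matched and at 25.2, 19.0, 13.2, 9.99 and 17.01 CPM in Cmpd 1 rats. The highest Cmpd 1 rat stood below the lowest Food matched rat, at a log2 fold change of −1.18 (SE 0.20, adjusted p = 0.00048 from edgeR). Mki67, the Ki-67 antigen, was at 56.9 ± 11.0 CPM in Food matched rats against 27.0 ± 7.84 CPM in Cmpd 1 rats, and Cdk1, the mitotic kinase, at 13.8 ± 2.83 and 6.78 ± 2.11 CPM (SD, n = 5 each). Mitotic genes such as Ccna2 (−1.14), Bub1b (−1.13) and Cenpf (−1.10) fell. Rrm2, a gene of DNA synthesis, had the largest decrease of the list (−1.19). Of the MCM helicase genes, Mcm5 was a lower DEG (−0.60) that kept the call in 12 of 18 alternatives. Mcm2 (−0.42), Mcm4 (−0.44) and Mcm7 (−0.26) were lower under the fold threshold. The summed level of the list ranged from 415.2 to 597.4 CPM in Food matched and from 257.3 to 415.3 CPM in Cmpd 1 rats, and Cmpd 1 rat 1 and Food matched rat 5 met at that boundary.

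Their promoters (300 bases around each annotated start, from RefSeq, GRCr8) were searched on both strands. The cell cycle homology region, read here as TTTGAA or TTCGAA, and the CCAAT box are sequences bound at many mitotic genes. Of the 19 list members with a promoter in that table, 9 held TTTGAA, against 18.3% of 33469 promoters, 3 held TTCGAA, against 1.69%, and 14 held CCAAT, against 37.5%. Here and in the promoter counts below, a gene counted if any of its promoters held the element. The shares are of single promoters, so counts and shares are unlike measures. CCAAT was as common in other lists searched, in 12 of 14 cholesterol genes and 15 of 21 unfolded protein and integrated stress response genes. The promoters of Cdk1 and Top2a are shown because both genes fell and both sequences held both kinds of element. Capitals mark these elements on either strand, so that the CCAAT box on the reverse strand reads ATTGG.
Cdk1 promoter, chr20:19265043-19265342, strand +: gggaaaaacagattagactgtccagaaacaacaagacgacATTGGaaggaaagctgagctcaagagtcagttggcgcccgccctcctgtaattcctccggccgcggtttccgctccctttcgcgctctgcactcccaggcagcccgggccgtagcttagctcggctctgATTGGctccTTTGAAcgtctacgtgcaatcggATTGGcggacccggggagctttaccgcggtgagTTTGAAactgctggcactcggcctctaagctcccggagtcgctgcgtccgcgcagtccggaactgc
Top2a promoter, chr10:84473044-84473343, strand −: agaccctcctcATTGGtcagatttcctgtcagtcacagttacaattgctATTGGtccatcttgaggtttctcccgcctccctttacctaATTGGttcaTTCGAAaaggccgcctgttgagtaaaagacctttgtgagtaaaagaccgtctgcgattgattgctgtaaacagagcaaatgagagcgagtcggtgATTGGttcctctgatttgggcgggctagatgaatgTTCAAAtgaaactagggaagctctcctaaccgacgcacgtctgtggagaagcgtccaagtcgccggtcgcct
Cdk1 held 2 matches to TTTGAA and 3 to CCAAT, and Top2a held 1 to TTTGAA, 1 to TTCGAA and 4 to CCAAT.

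Genes of the unfolded protein and integrated stress responses shifted by small amounts in most members. The unfolded protein response is induced when the endoplasmic reticulum is overloaded. Of the 24 listed genes, 2 were DEGs, both lower, while 14 were lower and 2 higher at an adjusted p under 0.05 (median −0.24). The DEGs were Sdf2l1 and Chac1 (−1.70), the latter at 0.3328 CPM or less in Cmpd 1 rats. Without Cmpd 1 rat 1, 4 were DEGs. Sdf2l1, an endoplasmic reticulum chaperone partner, was at 46.2, 48.8, 42.4, 42.2 and 35.3 CPM in Food matched and at 29.2, 30.1, 24.1, 21.9 and 28.0 CPM in Cmpd 1 rats (−0.69, SE 0.11, adjusted p = 0.00025 from edgeR). Hspa5, the chaperone BiP, was at 879 ± 69.5 CPM in Food matched rats against 693 ± 55.8 CPM in Cmpd 1 rats (SD, n = 5 each, −0.34, adjusted p = 0.0026 from edgeR), and Hsp90b1 was at 889 ± 73.6 and 676 ± 65.2 CPM (−0.40, adjusted p = 0.0007 from edgeR), both under the fold threshold. Ddit3, the stress-induced factor CHOP (−0.02), and Xbp1 (0.06) did not pass, and Asns, asparagine synthetase, was higher (0.28). Of the 21 members with a promoter in the RefSeq table, 6 held the endoplasmic reticulum stress element, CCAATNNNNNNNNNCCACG on either strand (its CCAAT overlaps the CCAAT box), which 0.0657% of all promoters held. They were Hspa5, Hsp90b1, Xbp1, Dnajc3, Calr and Creld2. The promoters of Hspa5 and Hsp90b1 are shown as those of measured chaperones that carry it, with its fixed letters in capitals.
Hspa5 promoter, chr3:38452766-38453065, strand +: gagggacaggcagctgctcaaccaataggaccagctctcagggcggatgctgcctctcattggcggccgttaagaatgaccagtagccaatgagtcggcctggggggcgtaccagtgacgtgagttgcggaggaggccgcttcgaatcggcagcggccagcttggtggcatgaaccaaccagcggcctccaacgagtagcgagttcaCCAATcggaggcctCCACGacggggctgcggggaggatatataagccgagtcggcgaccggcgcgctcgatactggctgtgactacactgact
Hsp90b1 promoter, chr7:23012244-23012543, strand −: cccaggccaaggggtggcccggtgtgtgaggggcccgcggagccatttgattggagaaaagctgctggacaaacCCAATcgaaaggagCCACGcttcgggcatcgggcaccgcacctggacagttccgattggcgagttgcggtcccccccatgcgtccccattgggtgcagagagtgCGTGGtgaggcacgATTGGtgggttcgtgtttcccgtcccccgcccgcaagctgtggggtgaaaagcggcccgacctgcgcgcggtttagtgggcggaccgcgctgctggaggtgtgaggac
Hspa5 held 1 match, read forward, and Hsp90b1 held 2, 1 of them on the reverse strand.

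Cholesterol synthesis and uptake genes, known targets of SREBP2, were mostly lower. Of 22, 6 were DEGs, all lower, and 16 were lower and 1 higher at an adjusted p under 0.05 (median −0.35). Without Cmpd 1 rat 4, 3 of the 6 remained DEGs. The sterol element that SREBP proteins bind, read as TCACNCCAC, was in 0 of the 14 members' promoters in the RefSeq table, against 1.12% of all promoters, and so was the looser TCACNCNAC, against 2.48%. Insig1, which holds SREBP proteins in the endoplasmic reticulum, was at 768, 556, 761, 711 and 779 CPM in Food matched and at 511, 454, 384, 354 and 408 CPM in Cmpd 1 rats, without overlap (−0.76, SE 0.11, adjusted p = 0.00015 from edgeR). Sqle, squalene epoxidase, fell as well (−0.97). Hmgcs1, an early synthase of the pathway, was the 1 member that was higher at an adjusted p under 0.05 (0.38). Soat1, which esterifies cholesterol, fell by 0.74 and the efflux transporters Abca1 (0.05) and Abcg1 (−0.01) did not pass. Scd1, the stearoyl-CoA desaturase, was the 1 DEG of 17 desaturase and elongase genes (−1.42). Plin2, a lipid droplet coat protein of macrophages and other cells, fell from 1126 ± 227 to 567 ± 100.02 CPM (SD, n = 5 each, −0.99, adjusted p = 0.00051 from edgeR), while Plin1, the coat protein of adipocyte droplets, was slightly higher (0.25).

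Glucocorticoid response genes held 5 lower DEGs of 15. Mt2A, a metallothionein induced by glucocorticoids and by metals, was at 111, 74.3, 77.1, 64.9 and 34.2 CPM in Food matched and at 26.0, 25.1, 21.9, 16.8 and 22.2 CPM in Cmpd 1 rats (−1.69, SE 0.31, adjusted p = 0.00074 from edgeR). Obese rats averaged 34.6 ± 10.4 CPM of Mt2A (SD, n = 5), nearer to the Cmpd 1 mean of 22.4 than to the Food matched mean of 72.3. Fkbp5, a chaperone that responds to glucocorticoids, was at 157 ± 39.8 CPM in Food matched, 79.6 ± 19.5 CPM in Cmpd 1 and 87.1 ± 36.8 CPM in Obese rats (SD, n = 5 each). Pdk4 (−1.12), a brake on pyruvate oxidation, Zbtb16 (−0.92) and Mt1 (−1.29) were the others. Tsc22d3 (−0.30) and Per1 (−0.42) did not pass the test, and Nr3c1, the glucocorticoid receptor, was higher under the fold threshold (0.37).

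**Figure D3:**
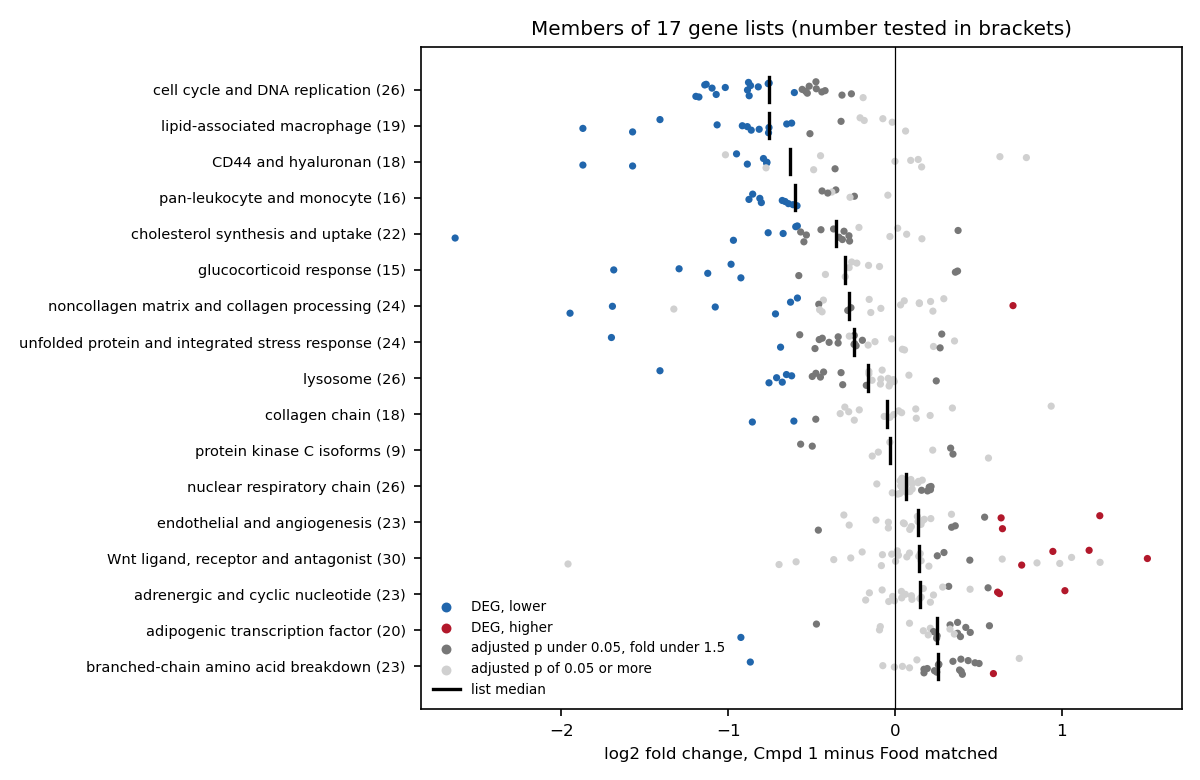
Log2 fold change of Cmpd 1 minus Food matched for every measured member of 17 gene lists, 1 point a gene, with black bars at the list medians. The medians run from −0.76 for cell cycle and for lipid-associated macrophage genes to 0.26 for branched-chain amino acid breakdown, and most points of the last 2 lists are grey, under the 1.5-fold threshold.

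The increases were smaller and were spread over adipocyte and signalling genes. In the breakdown of branched-chain amino acids, a pathway of mitochondria in adipocytes, 16 of 23 genes were higher and 1 lower at an adjusted p under 0.05, with a median of 0.26, yet 1 was a higher DEG. Bcat2, the mitochondrial aminotransferase that starts the pathway, was at 62.5 ± 3.80 CPM in Food matched rats against 87.1 ± 7.36 CPM in Cmpd 1 rats (SD, n = 5 each, 0.48, adjusted p = 0.00014 from edgeR). Bckdha, a subunit of the dehydrogenase that commits the pathway, was at 99.7 ± 15.1 and 141 ± 15.5 CPM (0.50), and Pccb, a propionyl-CoA carboxylase subunit, was the 1 DEG (0.59), at the threshold and no DEG with the size factors of DESeq2 or without Cmpd 1 rats 4 or 5 or Food matched rats 1, 2 or 4 in turn (lowest value 0.52). Bcat1, the cytosolic aminotransferase, fell instead, from 81.2 ± 18.8 to 44.4 ± 4.70 CPM (SD, n = 5 each, −0.87, adjusted p = 0.00046 from edgeR). Of 20 adipogenic transcription factor genes, 10 were higher and 2 lower at an adjusted p under 0.05, among them Cebpa (0.37), Ebf2 (0.57) and Klf15 (0.42), while Pparg did not pass (0.20) and Zbtb16 was the 1 DEG. Nuclear genes of the respiratory chain held 0 DEGs of 26 by edgeR, limma-voom and DESeq2, with 8 at an unadjusted p under 0.05 and 5 higher at an adjusted p under 0.05, such as Ndufb10 (0.22). Of 11 mitochondrially encoded genes, 0 were DEGs by the same tools and 0 reached an unadjusted p under 0.05 by edgeR.

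**Figure D4:**
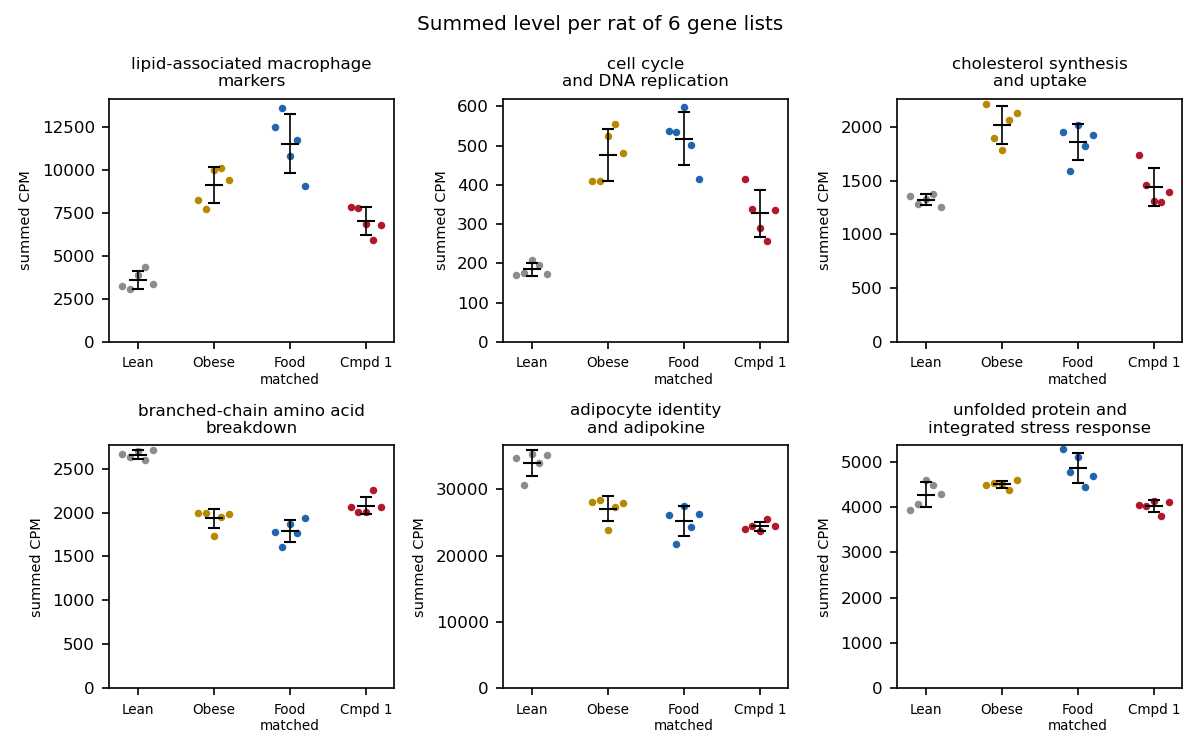
Summed CPM of 6 gene lists in each rat of the 4 groups (5 points a group; black bars give the mean ± SD). Food matched and Cmpd 1 rats do not overlap for lipid-associated macrophage markers (9051 to 13620 against 5909 to 7878 CPM) or branched-chain amino acid breakdown (1610 to 1933 against 2006 to 2256 CPM), and overlap for adipocyte identity genes.

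Several receptors and ligands rose. Adrb1, the β1-adrenergic receptor, through which nerves stimulate lipolysis, was at 3.85, 2.39, 2.37, 2.95 and 3.72 CPM in Food matched and at 6.504, 4.91, 4.37, 8.98 and 6.24 CPM in Cmpd 1 rats, without overlap (log2 fold change 1.02, SE 0.21, adjusted p = 0.0014 from edgeR). Adrb3, the β3 receptor of adipocytes, was at 30.9, 38.6, 30.9, 41.7 and 54.7 CPM and at 50.8, 77.6, 57.4, 59.8 and 55.8 CPM. The Adrb3 groups overlapped (0.61, SE 0.16, adjusted p = 0.0089 from edgeR), and it was no DEG without Cmpd 1 rat 2 (0.51), Food matched rat 1 or Food matched rat 3. With Gnai1, an inhibitory G protein subunit (0.63, and no DEG at 0.58 without Cmpd 1 rat 3 and at 0.57 without Food matched rat 2), they made 3 higher DEGs of 23 adrenergic and cyclic nucleotide genes. Of 18 brown and beige adipocyte genes, Kcnk3, a potassium channel gene, rose (0.59) and Tmem26 fell (−0.71). Kcnk3 lost the call in 8 of 18 alternatives, among them DESeq2 and leaving out Cmpd 1 rats 1, 4 or 5 or Food matched rats 2 or 4 in turn, and Tmem26 lost it without Cmpd 1 rats 1, 3, 4 or 5 or Food matched rats 2, 3 or 4 in turn. Ucp1 (−1.39), the uncoupling protein of heat-producing fat, Cidea (0.25) and Prdm16 (0.58) did not pass the test.

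Wnt genes held 4 higher and 0 lower DEGs of 30 (median 0.15), and 8 were higher without Food matched rat 2 and 7 without Cmpd 1 rat 1. Wnt5a, a ligand that signals outside the β-catenin route, was at 11.0, 13.8, 12.4, 12.3 and 15.3 CPM in Food matched and at 20.2, 22.9, 22.6, 23.7 and 20.4 CPM in Cmpd 1 rats (0.76, SE 0.10, adjusted p = 6.9e-05 from edgeR). Axin2, a target and inhibitor of β-catenin signalling, was at 8.56, 9.21, 8.99, 9.33 and 12.8 CPM and at 25.8, 19.6, 23.4, 22.1 and 18.5 CPM (1.16, SE 0.20, adjusted p = 0.00039 from edgeR). Neither gene overlapped between the Food matched and Cmpd 1 groups, and the Obese means, 16.5 for Wnt5a and 16.4 for Axin2, lay between theirs, though single Obese rats fell within the range of one or the other group. The antagonists Sfrp2 (1.51) and Dkk2 (0.95) rose with overlap between the groups, and the ligands Wnt10b (1.23), Wnt11 (0.85) and Wnt2b (−1.96) did not pass by edgeR, though DESeq2 called Wnt10b higher. Of 23 endothelial and angiogenesis genes, Vegfa, Egfl7 and Aplnr rose, with Egfl7 no DEG without Cmpd 1 rat 1 or Food matched rats 1 or 3 in turn (0.64, lowest value 0.55). Aplnr, the apelin receptor of endothelium, was at 15.3, 15.3, 13.03, 28.5 and 54.5 CPM in Food matched and at 74.4, 58.6, 57.0, 52.7 and 53.1 CPM in Cmpd 1 rats (1.23, SE 0.30, adjusted p = 0.0062 from edgeR), and Food matched rat 5 lay within the Cmpd 1 range. The lineage markers Cdh5 (0.13), Kdr (0.05) and Emcn (0.21) did not pass the test.

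Chemokines and their receptors held 7 lower and 1 higher DEG of 33, with 3 lower DEGs without Cmpd 1 rat 4 and 4 by limma-voom. Ccr1, a receptor of monocytes and T cells, fell without overlap (−0.92), and Ackr3, a scavenging receptor, rose (1.04). Of 25 interferon response genes, Oasl (−0.91) was the 1 DEG. Fuel metabolism lists held few DEGs and more genes past the adjusted p alone. At an adjusted p under 0.05, 7 insulin signalling genes were higher and 2 lower of 23, 6 fatty acid oxidation and ketone genes were higher and 2 lower of 23, and 3 glycolysis and lactate genes were higher and 7 lower of 24. Slc2a4, the insulin-responsive glucose transporter, was the 1 DEG among the insulin signalling genes (0.76), Bdh1, a ketone body enzyme, the 1 DEG among the fatty acid oxidation and ketone genes (−0.68, against a list median of 0.10), and Fasn, fatty acid synthase, the 1 DEG of 25 lipogenesis genes (−0.68, and no DEG at −0.57 without Food matched rat 5). Of the glycolysis and lactate genes, 2 fell, Hk3, a hexokinase of leukocytes (−1.04), and Slc2a5, the fructose transporter (−0.69). Hk3 was no DEG without Cmpd 1 rats 3, 4 or 5 or Food matched rats 1 or 2 in turn, and Slc2a5 was none without Food matched rats 2 or 4 in turn. Of 20 hypoxia response genes, 4 were higher and 8 lower at an adjusted p under 0.05 (median −0.13). Among these, Egln3 and Vegfa were higher DEGs and Car9, a carbonic anhydrase, was a lower DEG (−1.08), though Car9 was no DEG without Food matched rat 4. Of 21 genes of growth hormone, IGF and JAK-STAT feedback, Cish and Igfbp5 (0.94) rose and Igfbp4 (−0.66) fell, the last pair being binding proteins of insulin-like growth factors. Antioxidant genes held 1 higher DEG, Sod3, the extracellular superoxide dismutase (0.60), and 1 lower, Hmox1, of 25, and Sod3 was no DEG with no filter on low counts or without Cmpd 1 rat 4 or Food matched rat 2 (lowest value 0.53).

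Markers of the other cells of the depot and of neighbouring tissue held few DEGs. Thy1 (−0.60) was the 1 DEG of 18 progenitor genes, whose median was 0.13. Thy1 lost the call in 9 of 18 alternatives, among them limma-voom, library size alone, the replicate block and leaving out Cmpd 1 rats 2, 3 or 4 or Food matched rats 3, 4 or 5 in turn (−0.50 without Food matched rat 5). Of 10 smooth muscle and pericyte genes, Des, desmin, fell (−1.57) and Cspg4 rose (0.59). Des was no DEG without Cmpd 1 rats 3 or 4 or Food matched rat 2 in turn, and Cspg4 was none by DESeq2, with no filter or without Cmpd 1 rats 4 or 5 or Food matched rats 1, 2 or 3 in turn (lowest value 0.49). S100a8, a calgranulin of neutrophils, rose (1.27) as the 1 DEG of 11 neutrophil genes. Alb, albumin, rose (0.83) as the 1 DEG of 6 liver and intestine genes, of which 3 had a positive and 3 a negative log2 fold change. Their summed level was 6.596 to 14.19 CPM in Food matched and 14.78 to 24.26 CPM in Cmpd 1 rats, and was almost all Alb. Alb averaged 10.1 CPM of a mean sum of 10.56 in Food matched and 17.96 CPM of 18.39 in Cmpd 1 rats. Skeletal muscle genes held 0 DEGs of 13 by edgeR (1 at an unadjusted p under 0.05) and 4 lower by DESeq2, with the raised sum in Food matched rat 5 given above. Clock genes held 0 DEGs of 21 by edgeR, limma-voom and DESeq2, with 7 at an unadjusted p under 0.05 by edgeR. Homeobox and T-box genes of depot identity held 0 DEGs of 17 by edgeR, with 7 at an unadjusted p under 0.05, and limma-voom and DESeq2 each called Tbx15 higher. At an adjusted p under 0.05, 6 of these 17 were higher and 0 lower (median 0.22), among them Hoxc9 (0.45), Hoxc10 (0.50) and Meox2 (0.51). Their summed level was 87.85 to 110.3 CPM in Food matched and 119.8 to 129.1 CPM in Cmpd 1 rats, groups that did not overlap.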

How the data were processed

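RNA of inguinal white adipose tissue was sequenced from 20 male ZSF1 rats, 5 in each of 4 groups (poly-A selected, strand-specific libraries). The authors deposited raw counts of reads per gene. Per the study's methods, reads were aligned with STAR to the rat genome build rn6 and counted with featureCounts; the submitters' processing notes name STAR 2.5.2, Subread 1.5.1 and the build GRCh38, which is a human build and differs from the methods. Whether counting used strand is not given in the sources used here, so reads of overlapping antisense genes may be shared. One characteristics label of the Food matched rats reads lean; the sample titles and the methods give these rats as obese, and they were taken as obese.

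Of 32545 genes, those with 0 reads in at least 50% of the 20 libraries were left out, and 17653 were tested. Counts of all 20 libraries were fitted with edgeR 4.0.16 (R 4.3.3, TMM scaling, quasi-likelihood test, 1 term per group, 16 residual degrees of freedom), so the groups share 1 estimate of the spread. DEGs had a fold over 1.5 and a Benjamini-Hochberg adjusted p under 0.05 over all genes tested, two-sided. Fold changes were edgeR's own, with its default prior count, the log2 CPM of the principal components used a prior count of 2, and CPM used TMM-scaled library sizes. Levels were not divided by gene length and are compared within a gene. Replicates are separate animals by the labels' group design. Alternatives were other scalings and filters, limma-voom (limma 3.58.1), DESeq2 1.42.0, the 10 libraries alone, the replicate number as a block, other fold thresholds and leaving out each rat. The edgeR step was tested on simulated data.

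The members and the 53 gene lists were chosen with earlier results of these data known. Of 1007 listed genes 955 were tested. Named genes were the 10 largest increases and decreases among DEGs whose groups did not overlap and whose mean was 1 CPM or more, and for each list up to 3 DEGs of smallest adjusted p, or the member of smallest p where there was none, plus Prkca, Prkcb, Cd44, Adrb1, Adrb3 and Lepr. Other genes named, including members that did not pass the test, were chosen after their values were seen. Promoters were RefSeq's (GRCr8, 33469 sequences), matched by symbol, and 19 patterns were searched over 7 lists on both strands. Figures were drawn with matplotlib 3.10.9. Results for some genes are not reported here.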

Additional observations from a re-analysis of the deposited data

Results flagged for a closer look

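Among 220 groups of 5 rats (110 named genes in the Food matched and the Cmpd 1 group), 8 (3.64%) held 1 rat far from the other 4 by Dixon's criterion. Chance gives about 1 in 20 for independent groups that were not selected. Most of these genes were named for a small adjusted p or for no overlap, and all share the same rats. The share therefore cannot be set against that rate. Food matched rat 5 was the highest of its group for Myh1, a skeletal muscle myosin (20.72 CPM, the others 0.2871 to 0.983), Egln3 (2.371 CPM, the others 1.22 to 1.528) and Axin2 (12.82 CPM, the others 8.558 to 9.325). Cmpd 1 rat 4 was the highest for Cish (33.33 CPM, the others 8.143 to 13.57) and the lowest for Ccr1 (45.24 CPM, the others 64.49 to 70.29). Cmpd 1 rat 1 was the highest for Aplnr (74.39 CPM, the others 52.75 to 58.56) and for Chac1, an enzyme of glutathione breakdown (0.3328 CPM, the others 0.1676 to 0.2144). Cmpd 1 rat 5 was the highest for Pdk4 (99.95 CPM, the others 60.53 to 69.18).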

How the results depend on the processing

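The count of 1092 DEGs between Cmpd 1 and Food matched rats ranged from 970 to 1193 under other scalings, filters, tools and sample sets, and from 803 to 1289 when 1 rat was left out. Without a fold threshold it was 4031 and with a fold of 2 it was 374, both by construction. The count of 0 DEGs between Food matched and Obese rats became 10 with limma-voom and 69 with DESeq2, and ranged from 0 to 93 when 1 rat was left out, so it depends on the tool and on Food matched rat 5; the cause was not tested. Replicate numbers did not pair the rats: same-numbered rats had correlations of their deviations from the group means of 0.073, 0.07, 0.039, −0.014 and −0.002. With the replicate number as a block there were 1051 DEGs for Cmpd 1 and 2 for Food matched against Obese rats. Prkca turned sign, to 0.0060 with library size alone and to 0.057 without Cmpd 1 rat 1, and was −0.073 without Food matched rat 3. Of 110 named genes, 107 kept their direction and call with limma-voom and 3 lost the call, and without Cmpd 1 rat 4, the shallowest library, 95 kept it and 15 lost it. Depth limits genes under about 1 CPM most.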
